A study of Mus musculus with 6 samples.

Results

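The 9 membrane-bound adenylyl cyclase isoforms, Adcy1 to Adcy9, were followed in dentate gyrus (DG) granule cells that had lost the transcription factor Bcl11b/Ctip2. They are all 9 transmembrane members of this enzyme family, they were taken by gene symbol, and each was represented by exactly 1 probe set on the array, out of 19938 genes with a measured value. The granule cell layer was cut out by laser capture microdissection from 3 control and 3 mutant samples, and each RNA was hybridized to 1 Affymetrix whole-transcript array. Mutants were Bcl11b flox/flox mice of the tet-off line, carrying tetO-Cre and CaMKIIα-tTA, in which the forebrain-neuron promoter CaMKIIα drives the transactivator that switches on Cre once doxycycline is gone. Control and mutant mice alike had received doxycycline in their drinking water up to 2 months of age and were analyzed 4 weeks after its removal. Neither the genotype of the tet-off controls nor whether an array holds 1 animal is stated in the sources read here, so p-values measure the spread between these arrays. Values are log2 expression levels after RMA, a method that corrects the background and normalizes between arrays. The array medians over genes still ran from 7.02 to 7.03 in controls and from 7.07 to 7.08 in mutants. Over all probe sets the medians went the other way, from 6.30 to 6.36 in controls and from 6.29 to 6.33 in mutants. A difference of 1 on this scale is a doubling.

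Adenylyl cyclases make the second messenger cAMP from ATP. All 9 transmembrane isoforms are switched on by the stimulatory G protein, but they differ in what else acts on them: calcium bound to calmodulin stimulates some, the beta-gamma subunits of G proteins stimulate others, and the inhibitory G protein or free calcium holds others back. At the mossy fiber synapse, which granule cell axons form in CA3, long-term potentiation is presynaptic and is known to run through calcium, cAMP and protein kinase A.

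The family did not move as a block. In mutant granule cells, 3 isoforms were higher (Adcy3, Adcy5 and Adcy6), 4 were lower (Adcy1, Adcy2, Adcy8 and Adcy9) and 2 did not pass the test (Adcy4 and Adcy7). Passing means an adjusted p under 0.05 from limma, with Benjamini-Hochberg adjustment over all genes. In all, 7 of 9 isoforms changed, or 77.8%, where 15.2% of all genes did. Of all genes, 9.23% were higher and 5.93% were lower. Among genes at or above the median level, which include these 7 isoforms and not Adcy4 or Adcy7, 27.6% changed. For the same 7 isoforms the control and mutant arrays did not overlap, which held for 31.6% of all genes. The changes were small, between a log2 change of -0.46 for Adcy9 and 0.68 for Adcy5, and the median absolute change was 0.37 over the 9 isoforms against 0.082 over all genes. In RNA of a whole cell layer, fewer cells of a type and less RNA per cell cannot be told apart.

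**Figure D1:**
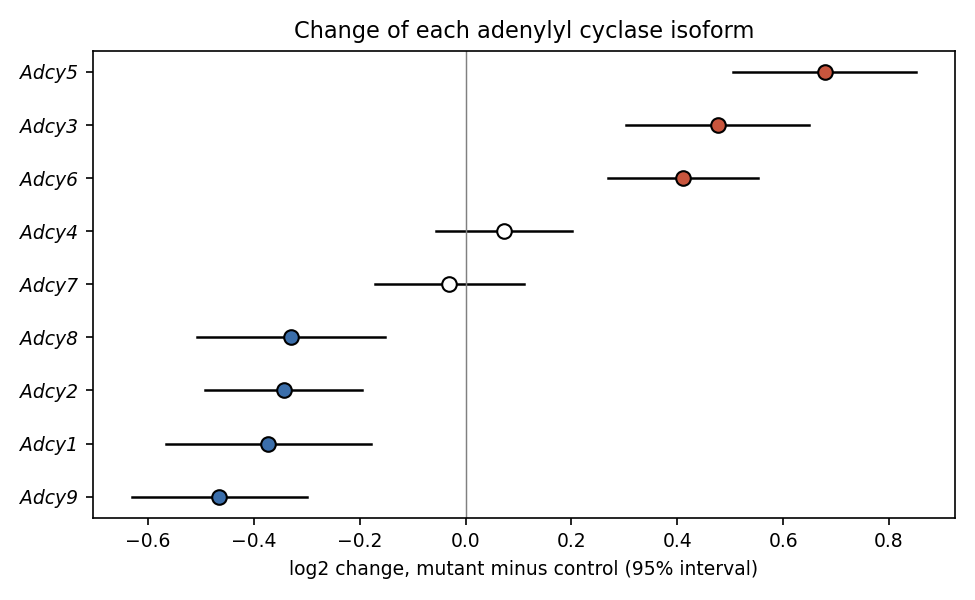
Log2 change of each isoform, mutant minus control, on the horizontal axis, with its 95% interval from limma as a line (n = 3 arrays per group). Filled circles passed the test, in red where higher and in blue where lower, and open circles did not; Adcy5, Adcy3 and Adcy6 lie to the right of 0 and Adcy8, Adcy2, Adcy1 and Adcy9 to the left, while the intervals of Adcy4 and Adcy7 include 0.

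Adcy1, Adcy3 and Adcy8 are classed as the isoforms that calcium and calmodulin can stimulate. Adcy1 is a neuronal isoform tied to mossy fiber potentiation. Its log2 level was 12.53, 12.36 and 12.17 in controls 1, 2 and 3 and 11.96, 11.99 and 11.999 in mutants 1, 2 and 3. The controls lay far apart, the mutants close together, and the lowest control stood 0.17 above the highest mutant. The log2 difference between mutants and controls was -0.37 ± 0.085 (SE; limma, adjusted p = 0.0190), so that its level fell by 22.8%.

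Adcy8, the other neuronal isoform that depends on calmodulin, had levels of 8.42, 8.24 and 8.37 in controls and 8.15, 8.00 and 7.89 in mutants. The groups were separate by 0.092, the narrowest gap of the 7 isoforms that changed. The log2 difference between mutants and controls was -0.33 ± 0.078 (SE; limma, adjusted p = 0.0225), a level that fell by 20.5%.

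Adcy3, known from olfactory neurons and from neuronal primary cilia, went the other way. Its levels were 9.05, 9.33 and 9.17 in controls and 9.72, 9.60 and 9.67 in mutants. Every mutant array was above every control array, and the log2 difference between mutants and controls was 0.48 ± 0.076 (SE; limma, adjusted p = 0.00344), or 39.1% more signal.

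The calls of Adcy1 and Adcy8 were the least firm of the family. Adcy1 passed in 2 of the 6 fits that left out 1 array, those without control 1 and without control 3, and had an adjusted p = 0.0705 without control 2 and 0.0773, 0.0650 and 0.0635 without mutants 1, 2 and 3. Adcy8 passed in 3 of the 6, and had an adjusted p = 0.0580 without control 3 and 0.0800 and 0.0891 without mutants 2 and 3. Adcy3 passed in all 6. The change of Adcy1 lay between -0.46 and -0.29 over these fits and that of Adcy8 between -0.40 and -0.27. Groups that do not overlap keep their direction when 1 array is left out, so these fits could not turn it.

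**Figure D2:**
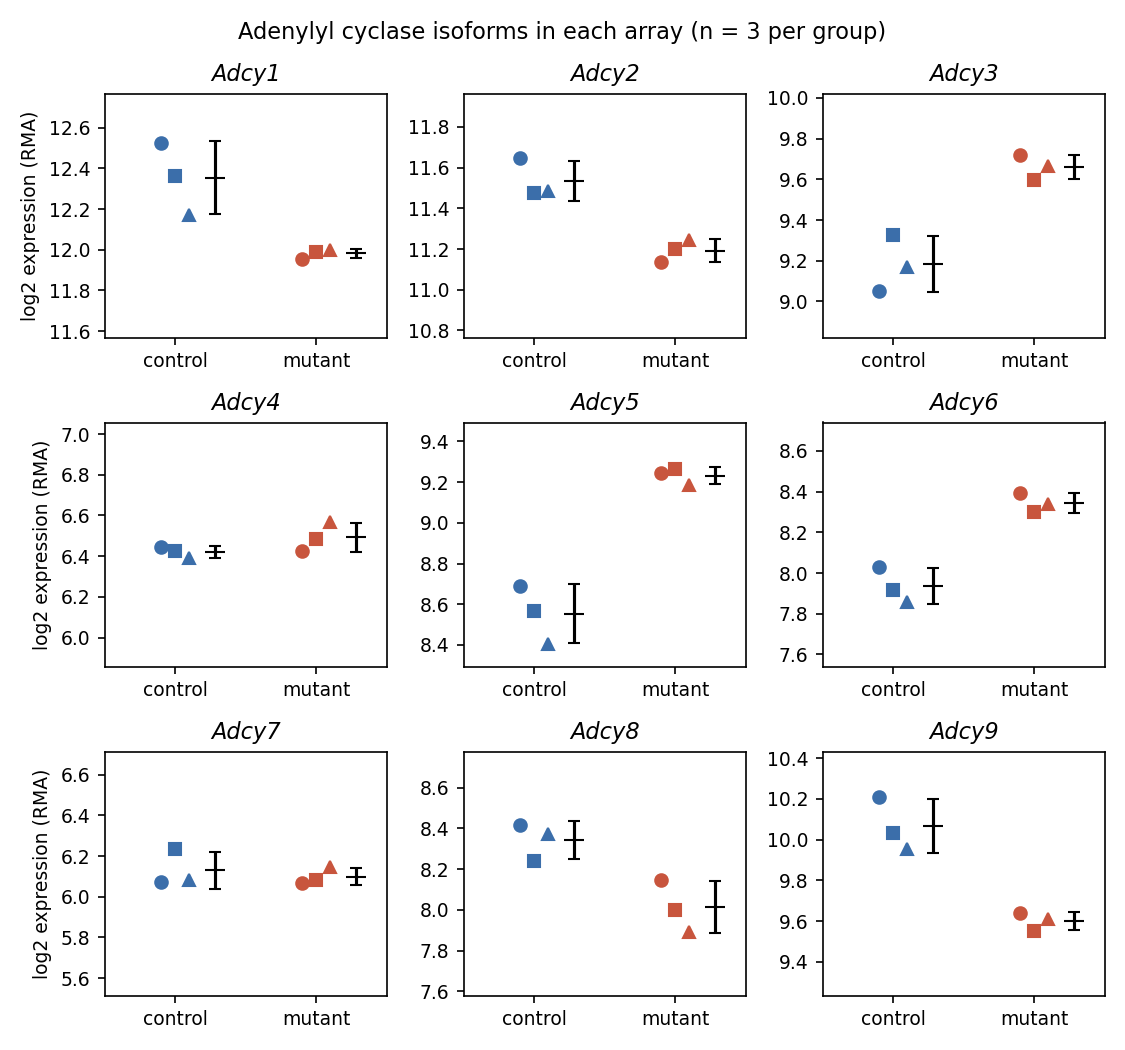
Log2 expression of each isoform in each array on the vertical axis, which spans the same range of log2 units in every panel. Blue symbols are controls and red symbols mutants, circles, squares and triangles are replicates 1, 2 and 3, and the bars give mean and SD (n = 3); the groups are separate in 7 panels and overlap for Adcy4 and Adcy7.

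Adcy5 and Adcy6 are close relatives that the inhibitory G protein and low calcium concentrations hold back, and both were higher in mutants. Adcy5, the main isoform of the striatum, had levels of 8.69, 8.57 and 8.40 in controls and 9.24, 9.27 and 9.19 in mutants. The gap between the groups was 0.50, the widest of the family and wider than the whole range of the controls, 0.29. This is a log2 difference of 0.68 ± 0.076 (SE; limma, adjusted p = 5.16e-04), a level 1.60 times that of controls. Adcy5 ranked 426 among all genes by its p and was the 1 isoform that changed by a fold of at least 1.5.

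Adcy6, a widely expressed isoform, had levels of 8.03, 7.92 and 7.86 in controls and 8.39, 8.30 and 8.34 in mutants. The groups were again separate, with a log2 difference of 0.41 ± 0.062 (SE; limma, adjusted p = 0.00261), or 32.9% more signal. Both isoforms passed in all 6 fits without 1 array. They also passed with an unpaired test after adjustment over all genes (adjusted p = 0.0383 for Adcy5 and 0.0445 for Adcy6). The paper's methods name this test for comparisons between groups in general, and it is called the methods' test below. For the arrays the paper names BRB-ArrayTools without stating the test, and that analysis was not repeated here. With the unpaired test the other 5 did not pass: the adjusted p was 0.0689 for Adcy3, 0.0615 for Adcy9, 0.0720 for Adcy2, 0.145 for Adcy1 and 0.143 for Adcy8. Over the alternatives with an adjusted p, that of Adcy5 lay between 2.11e-05 and 0.0383, that of Adcy6 between 1.77e-04 and 0.0445 and that of Adcy1 between 0.00128 and 0.145.

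Adcy2, Adcy4 and Adcy7 form the group that beta-gamma subunits stimulate when the stimulatory G protein is active. Adcy2, a brain isoform, had levels of 11.65, 11.47 and 11.49 in controls and 11.13, 11.20 and 11.24 in mutants. All mutants were below all controls, and the log2 difference between mutants and controls was -0.34 ± 0.065 (SE; limma, adjusted p = 0.00808), a level that fell by 21.2%. Adcy2 passed in all 6 fits without 1 array, with a change between -0.37 and -0.29.

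Adcy4 had levels of 6.45, 6.43 and 6.39 in controls and 6.43, 6.49 and 6.57 in mutants, and mutant 1 lay within the controls. Its log2 change was 0.072 with a 95% interval of -0.057 to 0.20 (adjusted p = 0.486 from limma), which allows a level between 0.961 and 1.15 times that of controls. Adcy7, an isoform known from immune cells, had levels of 6.07, 6.23 and 6.08 in controls and 6.07, 6.08 and 6.14 in mutants, which overlapped. Its log2 change was -0.031 with an interval of -0.17 to 0.11 (adjusted p = 0.818 from limma), or 0.888 to 1.08 times the control level, and the sign turned in the fit without control 2. The probe sets of Adcy4 and Adcy7 lay below the median gene on all 6 arrays and no measure of detection comes with them.

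Adcy9, which stands apart from the others in sequence and is nearly insensitive to the activator forskolin, had the largest decrease of the 9 isoforms. Its levels were 10.21, 10.04 and 9.95 in controls and 9.64, 9.55 and 9.61 in mutants. The groups were separate by 0.31, and the log2 difference between mutants and controls was -0.46 ± 0.073 (SE; limma, adjusted p = 0.00305), so that the level fell by 27.6%. It passed in all 6 fits without 1 array, with a change between -0.52 and -0.39.

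**Figure D3:**
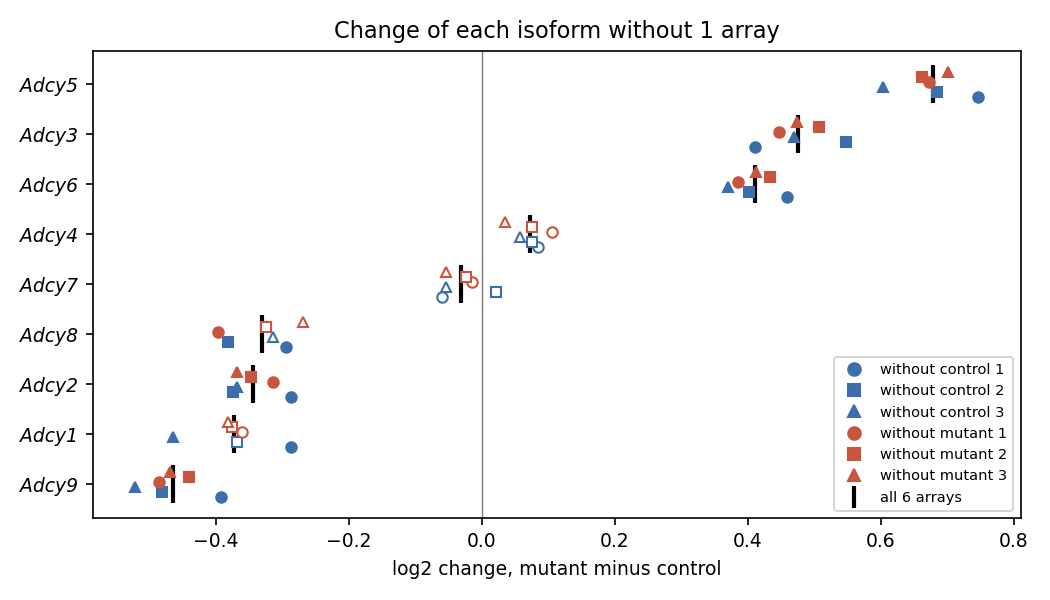
Log2 change of each isoform, mutant minus control, on the horizontal axis, in fits that left out 1 array each. Blue symbols leave out a control and red symbols a mutant, open symbols did not pass the test and black bars give the value with all 6 arrays; open symbols among the 7 isoforms that changed belong to Adcy1 and Adcy8, and Adcy7 lies on both sides of 0.

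The controls spread more than the mutants for 7 of the 9 isoforms, all but Adcy4 and Adcy8, and for 63.2% of all genes. Control 1 had the highest control level of Adcy1, Adcy2, Adcy4, Adcy5, Adcy6, Adcy8 and Adcy9 and the lowest of Adcy3 and Adcy7. It was also the array farthest from the rest on the second principal component of all genes, which held 14.5% of the variance, at 16.3 where the other 5 lay between -11.8 and 1.85. Without control 1, the changes of Adcy5 and Adcy6 were larger (0.75 and 0.46) and those of Adcy1, Adcy2, Adcy3, Adcy8 and Adcy9 smaller in size (-0.29, -0.29, 0.41, -0.29 and -0.39), and the same 7 isoforms passed the test.

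The promoters of a few isoforms are shown because the study names TGGGC as a putative site for Bcl11b/Ctip2. It was searched, with its reverse complement GCCCA, in the 250 bases before RefSeq transcript starts (build GRCm38.p6). The table used holds 10 such windows for 7 isoforms and none for Adcy6 and Adcy8. In 9 of the 10 windows there was at least 1 match, and in 50.7% of all 32851 windows of this length. The median GC content was 52.4% over all windows, and in windows of these isoforms it ran from 54.0% to 78.8%. The 3 windows printed are those of the isoform with the largest increase, of the isoform with the largest decrease and of the isoform with the most matches. Capitals mark TGGGC or GCCCA, and each sequence is read in the direction of its gene. The Adcy1 window is chr11:7063183-7063432 on the plus strand, that of Adcy5 chr16:35154614-35154863 on the plus strand and that of Adcy9 chr16:4420499-4420748 on the minus strand. The windows of Adcy5 and Adcy9 lie inside the annotated genes, chr16:35154494-35305743 and chr16:4284886-4437236. The bases before the outermost end of these genes were not searched.
Adcy1: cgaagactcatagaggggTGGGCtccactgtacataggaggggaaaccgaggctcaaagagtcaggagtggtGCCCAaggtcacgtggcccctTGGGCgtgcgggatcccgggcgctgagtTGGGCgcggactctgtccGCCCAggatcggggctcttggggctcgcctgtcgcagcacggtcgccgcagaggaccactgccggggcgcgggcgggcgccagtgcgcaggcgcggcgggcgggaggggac
Adcy5: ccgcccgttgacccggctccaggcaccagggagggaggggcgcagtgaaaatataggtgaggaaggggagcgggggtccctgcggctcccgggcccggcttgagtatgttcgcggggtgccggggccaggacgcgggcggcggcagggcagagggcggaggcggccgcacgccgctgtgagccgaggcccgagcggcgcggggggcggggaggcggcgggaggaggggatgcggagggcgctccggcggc
Adcy9: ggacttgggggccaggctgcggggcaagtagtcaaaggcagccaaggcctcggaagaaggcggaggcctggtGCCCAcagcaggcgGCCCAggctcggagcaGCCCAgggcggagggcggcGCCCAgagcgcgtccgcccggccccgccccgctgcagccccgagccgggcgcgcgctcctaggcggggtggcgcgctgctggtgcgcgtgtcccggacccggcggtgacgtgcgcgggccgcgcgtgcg
The Adcy1 window holds 5 matches, 3 as TGGGC and 2 as GCCCA. That of Adcy9 holds 4, all as GCCCA. The Adcy5 window, with 78.0% GC, holds 0, so these letters are not in this window. The windows of the lower isoform Adcy2 and of Adcy4, which did not pass the test, hold 2 matches each, and those of Adcy3 and Adcy7 1 or 2. A match of 5 letters is a description and not a binding site, and binding at these windows was not measured here. The paper places these letters in its C1ql2 promoter region and not in that of Sema5B. Its chromatin immunoprecipitation from wild-type hippocampus gave Bcl11b/Ctip2 enrichment at both regions.

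Around the cyclases, 98 other genes of cAMP signaling were measured, of which 17 were higher and 14 lower, or 31.6%, with a median log2 change of 0.035. Of all genes 15.2% changed, and in a fit of genes at or above the median level alone 27.6% did. That fit held 71 of the 98 genes, of which 29 changed. The counts of the single lists, some of which hold genes below that level, stand against 15.2% and 27.6%. Of 16 receptors that couple to the stimulatory G protein, 2 were higher and 5 lower, with a median of -0.15. Htr6, a serotonin receptor, had levels of 7.26, 7.29 and 7.29 in controls and 6.71, 6.59 and 6.63 in mutants, a log2 difference of -0.64 ± 0.054 (SE; limma, adjusted p = 1.20e-04). The dopamine receptors Drd1 and Drd5 and the serotonin receptor Htr4 changed by -2.10, -1.09 and -1.11. The receptors that rose were Glp1r and Gpr12, with 1.13 and 0.31, and the last of the 5 that fell was the melanocortin receptor Mc4r with -0.86; these 3 were named after their values were seen.

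Of 8 genes of the inhibitory G protein and its regulators, 3 were higher and 2 lower. Gnai2, an inhibitory alpha subunit, had levels of 10.19, 10.23 and 10.17 in controls and 10.85, 10.94 and 10.85 in mutants, a log2 difference of 0.68 ± 0.054 (SE; limma, adjusted p = 8.46e-05). The alpha subunit Gnao1 changed by 0.36, and the activators of G protein signaling Gpsm1 and Gpsm2 by -0.50 and -0.57; the third gene that rose, Gnai1, changed by 0.22 and was named after its value was seen. The stimulatory alpha subunit Gnal had a log2 change of 0.18 (adjusted p = 0.177 from limma). Of 15 beta and gamma subunits 2 were higher and 2 lower, among them Gng3 with 1.21 ± 0.093 (SE; limma, adjusted p = 7.23e-05) and Gnb4 with -0.56, Gnb5 with 0.27 and Gng12 with -0.20 (adjusted p = 0.0414). Gng12 did not pass in 5 of the 6 fits without 1 array, all but that without control 3 (0.0640 to 0.141), nor after centring on array medians (0.0930). Gnb5 did not pass without mutant 2 or mutant 3 (0.0546 and 0.0588), and Gnao1 not without mutant 2 (0.0540).

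Of 16 phosphodiesterases, the enzymes that break cAMP down, 6 were higher and 1 was lower, with a median log2 change of 0.11. Pde4b, a cAMP-specific enzyme, had levels of 8.78, 8.45 and 8.29 in controls and 9.44, 9.41 and 9.32 in mutants, a log2 difference of 0.88 ± 0.11 (SE; limma, adjusted p = 0.00101). Pde4d changed by 0.41, Pde2a by 0.53 and the calmodulin-dependent Pde1a by 1.57 ± 0.29 (SE), whose control levels ran from 6.55 to 7.89. The 1 that fell was Pde1b, also calmodulin-dependent, with levels of 11.57, 11.54 and 11.52 in controls and 11.30, 11.15 and 11.32 in mutants, a change of -0.28 (adjusted p = 0.0146). The last of those that rose, Pde3a and Pde7b, changed by 0.19 and 0.20 (adjusted p = 0.0412 and 0.0494 from limma), and these 3 were named after their values were seen. The mean level of Pde3a was 5.46 in controls and 5.65 in mutants, below the median gene. With the methods' test after adjustment 2 of the 16 passed, Pde4d among them (adjusted p = 0.0337) and Pde4b, Pde2a and Pde1a not (0.0588, 0.0765 and 0.133).

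Of 8 subunits and inhibitors of protein kinase A, 1 was higher and 2 lower. Of the 3 inhibitors, 1 was lower, 1 was higher and Pkia did not pass (0.028, adjusted p = 0.817; named after its value was seen). Pkig had levels of 9.98, 10.01 and 10.09 in controls and 9.34, 9.18 and 9.35 in mutants, a log2 difference of -0.74 ± 0.064 (SE; limma, adjusted p = 1.32e-04), and Pkib changed by 0.38. The catalytic subunit Prkacb changed by -0.20 (adjusted p = 0.0289), and did not pass in 5 of the 6 fits without 1 array, all but that without control 1, with an adjusted p between 0.0704 and 0.105, nor after renewed quantile normalization (0.0600). Of 13 anchoring proteins of the kinase, none passed with limma or with the methods' test after adjustment, and 4 had an unadjusted p under 0.05; Akap5, which holds the kinase at synapses, had a change of 0.54 (adjusted p = 0.0636), and 4.62e-05 without control 1. The cAMP-activated exchange factor Rapgef3 had a change of 0.28 (adjusted p = 0.0725).

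On the calcium side, 1 of 10 calmodulin genes and calmodulin-binding regulators was higher and 2 were lower. Camk4, a calmodulin-dependent kinase of the nucleus, had levels of 8.24, 8.11 and 7.62 in controls and 9.09, 8.98 and 8.99 in mutants, a log2 difference of 1.03 ± 0.14 (SE; limma, adjusted p = 0.00148). The calmodulin-binding peptide Pcp4 changed by -0.30 and the calcineurin subunit Ppp3r1 by -0.28. Of 8 CREB factors and coactivators 2 were higher, the CREB coactivator Crtc3 with 0.63 and the acetyltransferase Ep300 with 0.31 (adjusted p = 0.0320), which did not pass in 4 of the 6 fits without 1 array (0.0798 to 0.124), those without control 2, control 3, mutant 1 and mutant 2. With the methods' test after adjustment 15 of the 98 genes passed, and Camk4, Crtc3, Ep300, Gnb4, Gnb5, Gng12, Gnao1, Gpsm1 and Gpsm2 did not (0.0547 to 0.170). The soluble adenylyl cyclase Adcy10, which lies outside the transmembrane family, had a log2 change of 0.046 (adjusted p = 0.686 from limma).

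**Figure D4:**
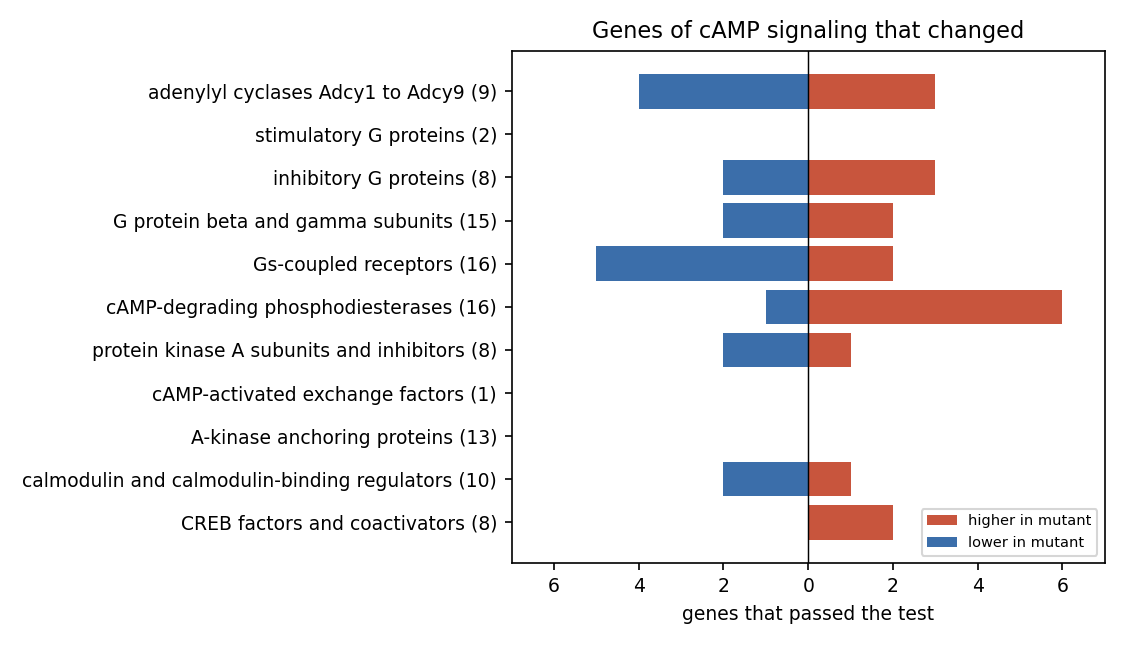
Number of genes that passed the test in each list of cAMP signaling, with increases drawn right of 0 and decreases left of 0, and the number measured in brackets. Of the adenylyl cyclases 3 were higher and 4 lower, and of the phosphodiesterases 6 higher and 1 lower.

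The genes whose profile over the 6 arrays lay closest to that of an isoform were picked by the root mean square difference after subtraction of the control mean. For Adcy5 these were Rhobtb1, Srgap2 and Elfn2 (0.027, 0.030 and 0.039), for Adcy6 Rnf24, Csnk2a2 and Klc1 (0.021, 0.032 and 0.032) and for Adcy3 Slc22a4, Kctd7 and Psme1 (0.035, 0.044 and 0.049). For Adcy1 they were Fancd2os, Cracdl and Zdhhc18 (0.032, 0.038 and 0.045), for Adcy2 5033430I15Rik, Slc38a10 and Zpld1 (0.026, 0.030 and 0.030), for Adcy9 Omg, Rph3al and Susd4 (0.033, 0.033 and 0.034) and for Adcy8 Igfbp3, Gtdc1 and Stk26 (0.045, 0.056 and 0.057). Such profiles keep the difference between the groups, so genes picked this way have a log2 change close to that of the isoform by selection. Whether they are regulated together with the isoforms was not tested.

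As a check of the labels, Bcl11b had levels of 10.56, 10.40 and 10.30 in controls and 9.03, 8.68 and 8.82 in mutants, although no source read here places its probes relative to the deleted part. Of 19 granule cell markers 2 were higher and 8 lower, and their mean level ran from 10.99 to 11.03 in controls and from 10.57 to 10.65 in mutants. Those that fell include C1ql2, Trpc6, Calb1 and Dsp, with log2 changes of -3.29, -1.64, -0.97 and -0.81. The 2 that rose were Tdo2 and Npnt, with 1.13 and 0.34. The paper describes C1ql2 and desmoplakin (Dsp) as directly regulated by Bcl11b/Ctip2. Prox1, which defines granule cells, had levels of 11.81, 11.70 and 11.45 in controls and 11.65, 11.59 and 11.57 in mutants, which overlapped. All marker counts given here, those that follow included, stand against 15.2% of all genes that changed. Among genes at or above the median level 27.6% changed, and the mean levels of the granule cell and immature neuron lists lay above that median. Markers of immature neurons were higher for 5 of 10, with a mean level of 8.75 to 9.08 in controls and 9.19 to 9.32 in mutants. Of 16 astrocyte markers 4 were higher, of 17 markers of pyramidal and mossy cells 5 were higher and 3 lower, and of 17 of interneurons 1 was higher and 2 lower. Of 15 oligodendrocyte markers 2 were lower, of 15 microglia markers 1 was lower and of 13 vascular markers 2 were higher. Their mean levels ran from 8.94 to 9.21 in controls and from 9.15 to 9.36 in mutants for astrocytes, from 7.56 to 7.63 and from 7.28 to 7.43 for oligodendrocytes and from 6.83 to 7.26 and from 6.77 to 6.92 for microglia. The part of these cell types in the changes of the cyclases was not tested.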

How the data were processed

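Gene expression of DG granule cells from 3 control and 3 mutant samples was measured on 1-colour Affymetrix arrays. The deposited values are on the log2 scale, made by the authors with RMA in Affymetrix Expression Console, as the submitters' processing notes name them, with versions not stated. Of all 35556 probe sets, 21789 have 1 gene in the platform annotation. Where a gene had several, the one of highest average level was kept, which gave 19938 genes and no filter on level. The groups were fitted without covariates in limma 3.58.1 (lmFit, eBayes; R 4.3.3), p-values were adjusted by Benjamini-Hochberg across all genes at a threshold of 0.05, and intervals are 95%. The fit was tested on simulated data. With 3 arrays a side, 0.1 is the smallest p of an exact permutation test, and precision is limited by this number of arrays. The isoforms, gene lists and alternatives were chosen with earlier results of these data known, and no list was tested as a set. Genes named are the 9 isoforms, of each list up to 4 genes that passed with the smallest p (else the gene of smallest p), Bcl11b, and the 3 genes closest in profile to each isoform that changed. Glp1r, Gpr12, Mc4r, Gnai1, Pde1b, Pde3a, Pde7b, Pkia and the granule cell markers were named outside this rule, after their values were seen. List genes without a probe set of their own were not analysed here. The replicate numbers of the titles were checked as pairs: deviations of same-numbered arrays had correlations of 0.16, -0.033 and 0.12, and no pairing was used. No source used here gives a batch. A second number in the titles, whose meaning is not stated, orders control 1 ahead of the mutants and the other controls behind them.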

Additional observations from a re-analysis of the deposited data

How the results depend on the processing

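No change of an isoform that passed the test turned its direction under any of the 18 alternatives. Most of these could not turn it. Another test, prior, threshold, level filter or a block by replicate number leaves the change as it is. So do the probe set alternatives, with 1 probe set per isoform. Leaving out 1 array cannot turn the direction where the groups do not overlap. The count of isoforms that changed was 7 with the methods' test unadjusted, a trend and robust prior, array weights, genes at or above the median level, the mean of probe sets or each on its own, and renewed quantile or median scaling. It was 2 with the methods' test after adjustment, 1 at a fold of at least 1.5 and 5 to 7 without 1 array each, and 5 at an adjusted p under 0.01, where Adcy1 and Adcy8 did not pass. The median scaling took the medians over all probe sets, so the offset of the medians over genes was not removed. Counts with the methods' test are not those of the paper's own array analysis in BRB-ArrayTools. Over all genes the count was 4545 with the methods' test unadjusted, 1141 with it adjusted, 5527 with array weights, 1554 at an adjusted p under 0.01, 709 at a fold of at least 1.5 and 1886 to 4487 without 1 array each, against 3023. For the other 98 genes of cAMP signaling it was 15 with the methods' test adjusted, 49 with array weights, 20 at an adjusted p under 0.01, 13 at a fold of at least 1.5 and 21 to 39 without 1 array each, against 31. With the replicate number as a block (replicate block), 7 isoforms, 3176 genes and 31 genes of cAMP signaling changed, Akap5 and Rapgef3 passed as well (adjusted p = 0.0176 and 0.0219, within ranges of 4.62e-05 to 0.287 and 0.0219 to 0.252 over the alternatives), Prkacb and Gng12 did not (0.0577 and 0.0637), and no call of an isoform changed. The sign of Adcy7, which did not pass, was not stable, between -0.097 and 0.021. The arrays carry no measure of detection, so whether Adcy4 and Adcy7, both below the median gene, lie above background was not tested. The same holds for Pde3a, Gnb4, Rapgef3 and Adcy10, whose mean levels were below the median gene in both groups. It also holds for Glp1r in controls and Htr6 in mutants.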
